A study of Mus musculus with 51 samples.

Results

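Gene expression in F1G4 WT mouse ES cells was compared with that of the same cells after 1 day of differentiation with Bmp4, the step at which the cells leave naive pluripotency. Genes were examined when their FPKM (mapped fragments scaled to transcript length and library size) was above 1 in ES cells or on day 1 and their name occurred once in the table. This held for 11028 of 24538 genes, and a gene was called higher or lower on day 1 when its log2 ratio of day 1 to ES cells, with 0.1 added to both values, was above 1 or below −1. Just inside and just outside the FPKM minimum, picked by their values, stood *Lrp3* (0.486 in ES cells and 1.00 on day 1) and *Mblac2* (0.233 and 0.999).

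The study followed mouse ES cells into cardiac mesoderm, with 51 samples in all, of which 18 were RNA samples. F1G4 WT cells were sampled as ES cells and at 3 later stages, days 1, 2 and 3, with 2 RNA samples per stage by their labels. The table holds 1 FPKM value per gene and stage, so the spread between samples is unknown, no difference below has a replicate check, and no test was possible. Day 1 was also sampled in *Smad4* KO cells and in WT cells of the parental line, which carry conditional *Smad4* alleles, with 1 RNA sample each. All cells were kept on inactivated fibroblast feeders in medium with serum and LIF. The ES sample was taken after removal of the feeders and formation of aggregates in hanging drops. The aggregates were then washed, plated on fibronectin and given serum-free N2 and B27 medium with Bmp4 (20 ng/ml). The loss of serum and LIF, the change of medium, plating and Bmp4 all fall between the samples compared, and their effects cannot be told apart. *Smad4* KO cells were made by removing the first exon with Cre and growing single cells into clones, and how many clones the RNA sample holds is not given in the sources used here.

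Naive ES cells are held by LIF, which acts through its receptor and Stat3, and by BMP, which acts through phosphorylated Smad1/5 with Smad4 and induces the Id genes. When LIF is withdrawn, factors of the naive state such as Klf4, Esrrb and Nanog are lost first and Oct4 (*Pou5f1*) persists, while formative genes such as *Fgf5*, *Pou3f1*, *Otx2* and *Dnmt3b* come on. In the embryo, Bmp4, Nodal and Wnt3 then induce *Eomes* and *T* in the primitive streak.

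On day 1, 801 genes (7.26% of those examined) were called higher and 615 (5.58%) lower, together 1416 or 12.8%. The median log2 ratio of all genes examined was −0.05, and over the chromosomes other than Y it ran from −0.13 to 0.04. The share called depended on the level of expression. Among the tenth of genes with the lowest mean FPKM, 27.9% were called higher and 15.0% lower, and among the tenth with the highest, 1.09% and 2.27%. With FPKM of at least 10 in either column, 397 of 5903 genes were called, of which 150 were higher and 247 lower, so the majority turned from higher to lower with level. The FPKM minimum also favours calls: of the 801 higher genes, 407 passed it through day 1 alone, and of the 615 lower genes, 239 through ES cells alone. Of the 10055 genes above 1 FPKM in both columns, 3.92% were called higher and 3.74% lower. Of the 5903 genes with FPKM of at least 10 in either column, 34 had a log2 ratio beyond 3, 8 of them higher and 26 lower.

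**Figure D1:**
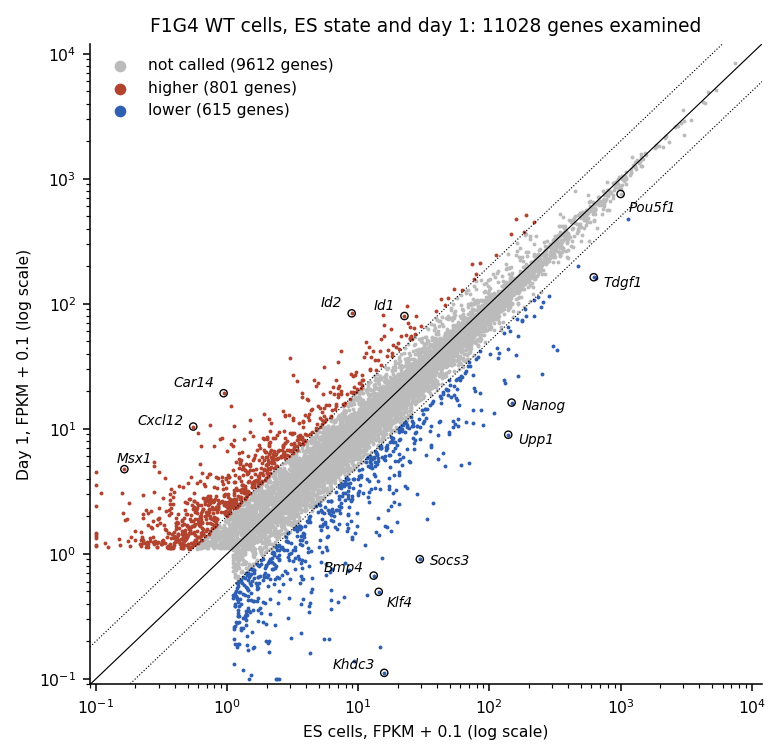
FPKM + 0.1 in ES cells (x axis) and on day 1 (y axis) of the 11028 genes examined, on log scales. The solid line marks equal values and the dotted lines a factor of 2; of the genes called, the 801 in red were higher and the 615 in blue lower on day 1.

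**Figure D2:**
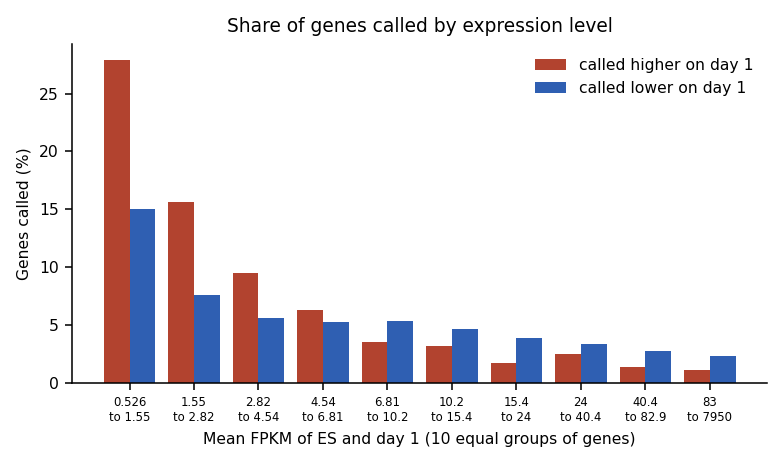
Share of genes called higher (red) and lower (blue) on day 1 in 10 equal groups of genes by mean FPKM of ES cells and day 1. Both shares are largest in the lowest group (27.9% and 15.0%), and from the fifth group upward the lower genes are the larger share.

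How far day 1 columns of WT cells differ was read from the WT cells of the *Smad4* line, a different line with conditional alleles in a separately normalised table. Scaled to a median ratio of 1, their day 1 values differed from those of F1G4 cells beyond the same log2 ratio of 1 at 1156 of 11177 genes (10.3%), near the 12.8% found between ES cells and day 1. At FPKM of at least 10, the ES to day 1 difference exceeded a log2 ratio of 2 at 1.73% of genes and 3 at 0.576%, against 1.04% and 0.239% between the lines. This comparison also contains the difference between the lines, and a single gene with a log2 ratio near 1 was therefore within the range seen between the WT lines.

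The ES cell label was borne out by the markers. *Pou5f1* (1002 FPKM), *Tdgf1* (625), *Zfp42* (305), *Sox2* (256) and *Nanog* (148) were abundant in the ES column, and of 10 markers only *Fut4* was below 1 in both columns. Markers of feeder fibroblasts were close to 0. Of 15, only *Thy1* was above 1 FPKM (0.460 in ES cells, 2.97 on day 1), the sum over all 15 was 0.993 in ES cells and 4.47 on day 1, and the collagen genes *Col1a1*, *Col1a2* and *Col3a1* reached at most 0.176. Defining markers of endoderm, blood and cardiac muscle were low, with *Gata6*, *Sox17*, *Tal1*, *Tnnt2* and *Nkx2-5* below 0.5 in both columns. Of these lists, *Lamb1*, *Pecam1*, *Etv2*, *Myl7* and *Myh6* passed the FPKM minimum. Only *Myh6* was called (0.412 and 1.52, higher), and it passed through day 1 alone. Of the trophoblast list, *Elf5* and *Prl3d1* were listed at 0 in both columns. Of its 4 genes examined, *Hand1* (0.121 and 1.18), which mesoderm shares, and *Krt7* (0.882 and 2.31) were called higher and *Plet1* lower (2.26 and 0.703), and none was above 1 FPKM in both columns. In the neural list, *Nes* (5.23 and 11.7) was called higher and *Pax6* (1.56 and 0.481), *Ncam1* (1.63 and 0.343) and *Olig2* (8.50 and 3.57) lower. *Pax6* and *Ncam1* passed the FPKM minimum through ES cells alone, which fixes their direction. Among the 3 above it in both columns, 1 was higher and 1 lower, with 3.92% and 3.74% of all such genes.

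All 15 naive pluripotency factors were examined and all 15 were called lower on day 1, with log2 ratios from −4.85 to −1.44 and a median of −3.19, against −0.05 for all genes examined and 5.58% of genes called lower. *Klf4* (chr4:55527137-55532475, mm10), a Krüppel-like factor downstream of Stat3, stood at 14.2, 0.396, 0.580 and 0.859 FPKM in ES cells and at the 3 following days. *Prdm14*, a repressor of differentiation genes, was 4.17 in ES cells and 0.0599 on day 1, and the difference was as steep (log2 −4.74) but rests on a low day 1 value. *Klf4* and *Prdm14* passed the FPKM minimum through ES cells alone, which fixes their direction. The other 13 were above it in both columns and all lower. *Nanog* (chr6:122707489-122714633) stood at 148, 16.1, 120 and 119 over the 4 stages. It was thus low on day 1 alone, unlike *Zfp42* (Rex1), which stood at 305, 46.0, 19.9 and 12.03. The orphan receptors *Nr0b1* and *Nr5a2* had log2 ratios of −3.56 and −3.03, and *Tfcp2l1*, another target of LIF, −3.24. The shallowest ratios were those of *Dppa3* (−1.44), *Klf5* (−1.87) and *Tbx3* (−1.91), and *Tbx3* returned from 1.01 on day 1 to 3.36 and 4.56 on days 2 and 3. In the bulk samples, fewer cells with a transcript and less RNA per cell cannot be told apart.

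The core pluripotency factors differed less. Of 11, only *Sox2* (256 in ES cells, 104 on day 1, log2 −1.30) and *Dppa5a* (1141 and 477, log2 −1.26) were called lower, and the median log2 ratio was −0.55. *Pou5f1*, which encodes Oct4, stood at 1002, 755, 740 and 465 FPKM over the 4 stages. *Lin28a*, which binds let-7 precursors and mRNAs, was the only member above its ES value (171 and 281, log2 0.72).

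Genes of the LIF receptor and of Stat3 were lower as well. Of 15 genes, 12 were examined, 8 were called lower and none higher, and the median log2 ratio was −1.55. Of the 8, *Socs3*, *Bcl3* and *Gbx2* passed the FPKM minimum through ES cells alone, which fixes their direction. Of the 9 above it in both columns, 5 (55.6%) were lower, against 3.74% of all such genes. The receptor subunits *Lifr* (26.2 and 8.32) and *Il6st* (19.5 and 7.35) and the transcription factor *Stat3* itself (19.3 and 3.14, log2 −2.58) were called lower, whereas the kinase gene *Jak1* stood at 8.75 and 8.60. Among Stat3 targets, *Socs3* (chr11:117966079-117970336), the feedback inhibitor of the receptor, stood at 29.4 and 0.805 (log2 −5.03), *Bcl3* at 5.88 and 0.108 (−4.85) and *Gbx2* at 15.1 and 0.831 (−4.03). On day 3, *Socs3* (5.64) and *Gbx2* (3.94) were above their day 1 values and below those of ES cells. *Pim1* was not lower (7.54 and 9.55), while the related kinase gene *Pim3* was called lower (19.1 and 6.91).

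Formative and primed genes moved in both directions. Of the 21 examined, 7 were called higher, 2 of them above the FPKM minimum on day 1 alone, and 2 lower. The median log2 ratio was 0.86. Over all genes examined, 7.26% were called higher and 5.58% lower. With the day 1 column of the WT cells of the *Smad4* line the median of the list was −0.16, with 5 higher and 4 lower. *Fgf5*, the ligand that marks the early epiblast, stood at 0.809, 8.39, 11.5 and 26.0 over the 4 stages (log2 3.22 on day 1). *Pou3f1* (Oct6) was 4.29 in ES cells, 13.9 on day 1 and 5.28 on day 2, and *Sall2* 1.81, 12.9 and 5.95, so both were highest on day 1. *Sox3* (0.252 and 1.37), *Sox4* (1.91 and 5.79) and *Zic2* (8.17 and 18.7) were also called higher. *Otx2*, at 27.0 and 54.1, had a log2 ratio of 0.998 and just missed the call. *Grhl3* (7.16 and 2.00) was among those called lower.

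In F1G4 cells, the enzymes of DNA methylation shifted within the family. The de novo methyltransferase gene *Dnmt3b* stood at 218, 455, 148 and 91.2 FPKM over the 4 stages (log2 1.06 on day 1), and *Dnmt3a* at 30.6, 53.1, 14.3 and 11.5 (0.79). Both were highest on day 1. Their cofactor gene *Dnmt3l* stood at 248 and 125 (−0.98), and the maintenance genes *Dnmt1* and *Uhrf1* had ratios of −0.12 and −0.10. Of the Tet dioxygenases, which oxidise methylcytosine, *Tet2* was called lower (37.0 and 2.45, log2 −3.86), as was *Tet1* (55.5 and 17.5, −1.66). *Tet3* was just past the call on the higher side (0.542 and 1.19, 1.01), through day 1 alone. In WT cells of the *Smad4* line, normalised separately, *Dnmt3b* was 242 and *Dnmt3a* 16.0 on day 1. With that day 1 column the list median was −0.74, against −0.10 with the F1G4 column. None of the 8 genes then examined was higher and 2 were lower.

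**Figure D3:**
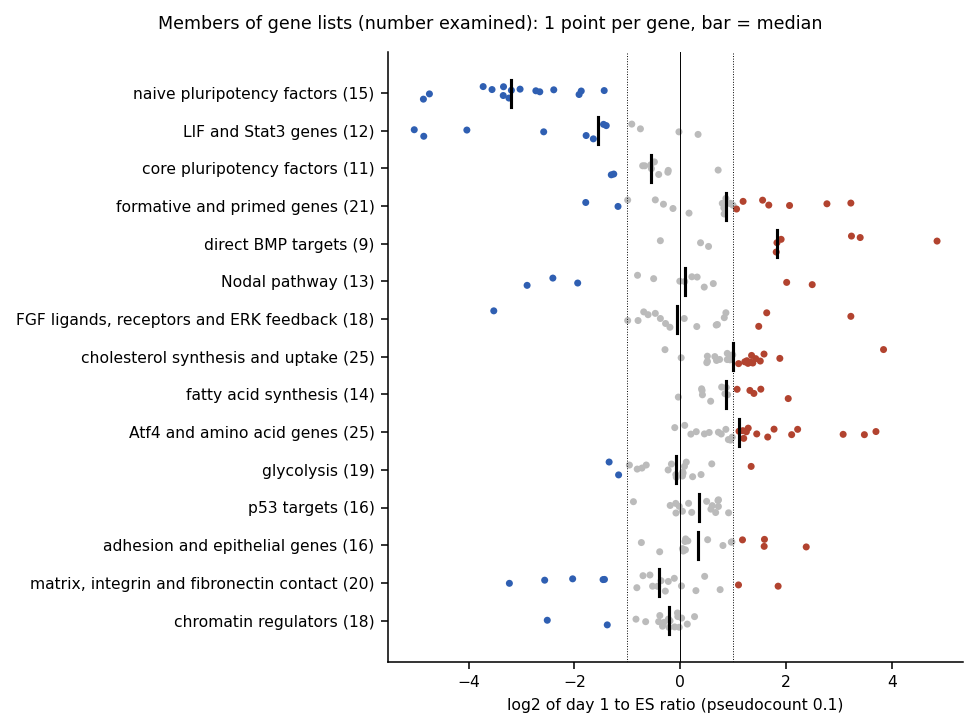
Log2 ratio of day 1 to ES cells for the members examined of 15 gene lists, 1 point per gene, with red points called higher, blue lower and grey not called. Black bars are list medians, which ran from −3.19 for naive pluripotency factors to 1.83 for direct BMP targets.

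Among direct targets of BMP signalling, 9 of 15 genes were examined, 6 were called higher on day 1 and none lower, with 7.26% of all genes called higher, and the median log2 ratio was 1.83. *Smad6*, *Msx1* and *Msx2* passed the FPKM minimum through day 1 alone, which fixes their direction. The other 6 were above it in both columns, and 3 of these, *Id1*, *Id2* and *Id3*, were called higher. *Id1* stood at 22.4, 79.7, 52.1 and 29.2 FPKM over the 4 stages. *Id2* stood at 8.81, 83.7, 63.2 and 25.4 (log2 3.23 on day 1), and *Id3* at 14.9, 52.6, 40.4 and 40.9. These 3 genes, which encode inhibitors of bHLH factors, were highest on day 1, whereas the homeobox genes *Msx1* (0.0647, 4.65, 5.44 and 9.84) and *Msx2* (0.0165, 1.13, 3.27 and 9.21) had a larger value at each later stage. The ES values of *Msx1* and *Msx2* lie below the pseudocount, which then sets their ratios. The inhibitory Smad gene *Smad6* was called higher (0.618 and 2.59), but *Smad7* was not (15.4 and 11.9). *Id4* and *Bambi* had ratios of 0.53 and 0.38, and *Gata2* (0.0796 and 0.825) was below the FPKM minimum. The gene of the ligand, *Bmp4* (chr14:46383525-46390669), was at 13.0 and 0.569, and was called lower while the factor was being added to the medium.

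The promoters of these genes are given because phosphorylated Smad1/5 is known to bind the sequences GGCGCC and GGAGCC. RefSeq windows (GRCm38.p6) from 250 bases before to 50 after the transcription start existed for 11 of the 15 genes, and 10 of these 11 had a match on either strand. Over all 32851 windows 37.1% had a match, and over the 11319 windows of genes examined 52.6%. Capitals mark the matches, and a match is a description of the letters and not of binding.
Id2, chr12:25096043-25096342, minus strand: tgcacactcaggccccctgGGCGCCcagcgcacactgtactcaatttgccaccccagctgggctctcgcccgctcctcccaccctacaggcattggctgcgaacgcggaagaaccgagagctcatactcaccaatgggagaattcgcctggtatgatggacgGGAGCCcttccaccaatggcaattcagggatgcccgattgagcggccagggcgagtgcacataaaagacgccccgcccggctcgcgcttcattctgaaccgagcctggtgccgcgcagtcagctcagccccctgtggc
Id3, chr4:136143572-136143871, plus strand: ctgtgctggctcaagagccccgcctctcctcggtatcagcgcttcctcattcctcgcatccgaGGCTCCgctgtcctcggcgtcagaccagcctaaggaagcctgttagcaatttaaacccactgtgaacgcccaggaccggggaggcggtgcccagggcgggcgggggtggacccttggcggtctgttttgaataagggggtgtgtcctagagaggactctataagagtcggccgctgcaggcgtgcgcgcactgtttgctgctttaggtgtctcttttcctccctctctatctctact
Msx2, chr13:53472731-53473030, minus strand: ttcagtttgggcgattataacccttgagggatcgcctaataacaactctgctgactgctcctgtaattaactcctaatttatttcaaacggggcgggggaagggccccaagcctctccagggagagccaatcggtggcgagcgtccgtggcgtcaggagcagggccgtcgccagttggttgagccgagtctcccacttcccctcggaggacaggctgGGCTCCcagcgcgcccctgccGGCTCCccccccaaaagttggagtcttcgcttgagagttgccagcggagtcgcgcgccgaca
The *Id2* window held 1 match to each sequence, and the *Id3* and *Msx2* windows matched GGAGCC on the opposite strand only. *Id1* had no window in the table.

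Components of the Nodal pathway, which signals through Smad2/3, differed among themselves. Of 13 examined, 2 were called higher and 3 lower, with 7.26% and 5.58% over all genes examined. The 2 higher genes passed the FPKM minimum through day 1 alone, which fixes their direction. Of the 11 above it in both columns, 3 were lower and none higher. *Lefty1*, a feedback inhibitor and target of Nodal, stood at 17.7, 2.29, 17.1 and 14.3 FPKM over the 4 stages. *Lefty2* stood at 75.1, 14.1, 30.0 and 39.3, and the co-receptor gene *Tdgf1* (Cripto) at 625, 163, 569 and 533. Each had its lowest value on day 1, as *Nanog* did. *Nodal* itself stood at 14.1, 9.91, 32.1 and 30.8 (log2 −0.50 on day 1). The receptor genes *Acvr1b*, *Acvr2a* and *Acvr2b* and the effector genes *Smad2* and *Smad3* had ratios from −0.01 to 0.45. The proprotein convertase gene *Furin* (0.883 and 3.86) and the ligand gene *Gdf1* (0.273 and 2.00) were called higher.

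Of 19 WNT ligand genes only *Wnt3*, *Wnt5b* and *Wnt7b* passed the FPKM minimum, each through a single column. *Wnt3*, the ligand that starts the primitive streak, stood at 0.0794, 2.47, 16.4 and 25.0 over the 4 stages. *Wnt5b* was called higher (0.259 and 1.93) and *Wnt7b* lower (1.67 and 0.268). WNT target genes were mostly not called: of 8 examined, *Nkd1* was higher (0.271 and 1.02) and *Notum* lower (7.63 and 0.352), and *Axin2*, a general target, stood at 2.39 and 4.19 (log2 0.78). *Nkd1* and *Notum* each passed the FPKM minimum through a single column, which fixes their direction. Over all genes examined, 7.26% were called higher and 5.58% lower. Of 16 nascent mesoderm genes, 3 passed the FPKM minimum, *Wnt3*, *Eomes* (0.952 and 2.38) and *Hand1*. Each did so through day 1 alone, where it was the higher, so that their direction follows from the minimum and gives no count for the list. *T* (Brachyury) was 0.0784 and 0.778, under the minimum, and *Mixl1* at 0.267 and 0.451.

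In the FGF list, 3 of 18 genes examined were called higher and 1 lower, with 7.26% and 5.58% over all genes examined. Of the 15 above 1 FPKM in both columns, 1 was higher and none lower. *Fgf4*, the main ligand of ES cells, stood at 71.0 and 40.8 (log2 −0.80) and *Fgf17* at 8.28 and 0.629 (−3.52). The ERK phosphatase gene *Dusp4* was called higher (8.75 and 27.4), with *Dusp6* at 29.0 and 51.7 (0.83), whereas the ERK-induced genes *Etv4* (19.1 and 9.55) and *Spry4* (27.0 and 16.7) were below their ES values without passing the call. *Spred3*, another inhibitor of the pathway, was called higher (0.913 and 2.73), and so was *Fgf5*. The only lower call in the list was that of *Fgf17*. Of 16 immediate early genes examined, *Fos*, *Junb*, *Egr1* and *Nr4a1* were called lower and *Jun*, *Ier5* and *Atf3* higher, *Atf3* at 0.237 and 3.97. *Fos* and *Egr1* passed the FPKM minimum through ES cells alone and *Ier5* and *Atf3* through day 1 alone, which fixes their direction. Among the 12 above it in both columns, 1 was higher and 2 were lower.

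**Figure D4:**
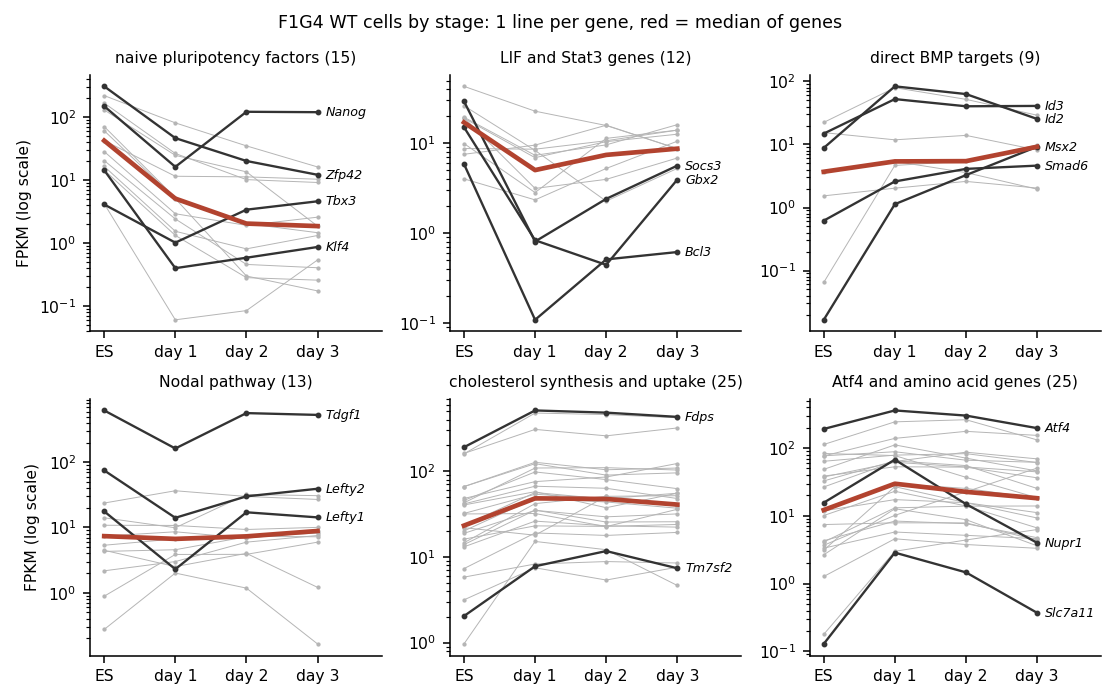
FPKM (log scale) in ES cells and on days 1, 2 and 3 for the members examined of 6 lists, 1 line per gene, with named genes in black and the median over genes in red. Median FPKM went from 42.0 to 5.04 between ES cells and day 1 for naive pluripotency factors and from 23.2 to 48.2 for cholesterol synthesis and uptake.

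Genes of cholesterol synthesis and uptake, which the factor Srebp2 activates when sterol is scarce, were higher together. All 25 were examined, 12 were called higher and none lower, 24 had a ratio above 0, and the median log2 ratio was 0.99. Among the enzymes, *Fdps* stood at 191 and 512, *Msmo1* at 159 and 478, and *Sqle* at 45.6 and 98.1 at the first 2 stages. *Hmgcs1*, an early enzyme gene of the pathway, was just under the call (161 and 308, log2 0.93). *Ebp* alone was below its ES value (21.9 and 17.9). Of 14 genes of fatty acid synthesis and desaturation, 5 were called higher (*Me1*, *Fads2*, *Scd1*, *Scd2* and *Fads1*) and none lower, and *Scd2* stood at 85.1 and 212. The sterol exporter gene *Abca1* was called lower (2.35 and 0.306).

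Targets of Atf4, the transcription factor of the amino acid and integrated stress response, were also higher. All 25 were examined, 13 were called higher and none lower, and the median log2 ratio was 1.11. *Ddit3* (Chop) stood at 3.10, 26.9, 15.6 and 11.2 over the 4 stages, and *Chac1* at 2.66, 12.7, 8.77 and 3.61. *Nupr1* stood at 15.6, 67.5, 14.9 and 4.00. These were highest on day 1. The cystine transporter gene *Slc7a11* was called higher (0.128 and 2.86), as were the serine synthesis genes *Phgdh* (26.7 and 63.5) and *Psat1* (113 and 244). *Psph*, the third gene of serine synthesis, stood at 32.8 and 64.8 (log2 0.98), and *Asns* at 76.6 and 139 (0.86). *Atf4* mRNA itself stood at 192 and 360 (0.91).

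The promoters of *Hmgcs1* and *Nupr1* are given as the windows with a match to a sterol element (TCACCCCAC) and to a sequence bound by Atf4 with a partner (TGATGNAAT). In the sterol list, 1 of 17 genes with a window had the first match, and in the Atf4 list 2 of 22 (*Nupr1* and *Pycr1*) had the second. Over all windows the shares were 0.551% and 0.965%, and capitals mark the match.
Hmgcs1, chr13:119690101-119690400, plus strand: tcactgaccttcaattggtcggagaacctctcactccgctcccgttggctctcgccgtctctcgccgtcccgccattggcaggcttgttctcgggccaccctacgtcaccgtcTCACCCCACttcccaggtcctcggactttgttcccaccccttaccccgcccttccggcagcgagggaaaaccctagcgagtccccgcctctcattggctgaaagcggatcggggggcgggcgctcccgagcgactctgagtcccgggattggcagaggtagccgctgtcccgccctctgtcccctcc
Nupr1, chr7:126625421-126625720, minus strand: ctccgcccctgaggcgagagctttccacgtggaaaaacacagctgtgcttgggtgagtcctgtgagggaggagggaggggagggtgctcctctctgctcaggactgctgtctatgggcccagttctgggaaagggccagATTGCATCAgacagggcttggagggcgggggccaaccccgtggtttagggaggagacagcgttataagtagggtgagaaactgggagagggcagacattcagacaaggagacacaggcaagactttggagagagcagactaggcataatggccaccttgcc
The *Nupr1* match lies on the opposite strand.

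Over the whole set of genes called, promoter composition differed from that of all genes examined, as a description without a test. The windows of genes called lower had a median of 13 CpG dinucleotides and those of genes called higher 17, against 21 for genes examined. TATAAA occurred in 12.8% of windows of lower genes, 7.66% of higher genes and 7.08% of genes examined. GGCGCC occurred in 15.1%, 21.4% and 21.5% of these windows, and GGAGCC in 41.5%, 46.0% and 41.5%. The cAMP response sequence TGACGTCA was less frequent in both called groups (1.94% in lower and 1.34% in higher genes) than in all genes examined (3.33%). The other motifs searched, CAGACA (Smad), CTTTGAT (Tcf and Lef), TCAAGGTCA (Esrrb), CACGTG (E-box), ACGTGC (hypoxia) and TGACNNNGC (Nrf2), differed by at most 3.44 percentage points between either group called and all genes examined. Several windows belong to genes with more than 1 start site, and GC-rich motifs follow CpG content.

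The 15 lowest ratios among genes with FPKM of at least 10 in ES cells included *Socs3*, *Klf4*, *Gbx2*, *Tet2*, *Esrrb*, *Nr0b1* and *Tcl1* of the lists above. The lowest of all was *Khdc3* (chr9:73101381-73106631), a maternal-effect gene of oocytes and early embryos, at 15.7, 0.0115 and 0.146 FPKM and, on day 3, listed at 0. *Upp1*, which encodes uridine phosphorylase, stood at 139, 8.86, 11.1 and 51.2, and the junction gene *Jam2* at 11.6, 0.367, 0.184 and 0.0894. *Upp1* was thus partly back on day 3, whereas *Jam2* was not. The keratin genes *Krt42* (33.6 and 1.79) and *Krt17* (19.6 and 1.68) and the galectin gene *Lgals9* (17.7 and 1.42) were also among them. *Eif3j1* is uncertain: it stood at 14.6 and 0.0795, but its near-identical copy *Eif3j2* can take shared reads, and their sum was 49.9 in ES cells and 47.9 on day 1.

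The 15 highest ratios at FPKM of at least 10 included *Id2*, *Ddit3* and *Sall2*. The highest was *Car14* (chr3:95897768-95905117), a carbonic anhydrase gene, at 0.841, 19.1, 28.9 and 20.0 FPKM over the 4 stages, and a second carbonic anhydrase gene, *Car4*, stood at 2.94, 36.7, 30.7 and 63.3. The chemokine gene *Cxcl12* (chr6:117168535-117181368) stood at 0.452, 10.3, 3.54 and 1.36, and so was highest on day 1. *Has2*, the synthase of hyaluronan, stood at 0.635 and 10.6, and *Prom1* (CD133) at 1.40 and 11.7. The MHC class I gene *H2-K1* stood at 4.53, 24.5, 47.1 and 88.5 and belongs to a family of near-identical genes, so its share of reads is uncertain. The mitochondrial enzyme gene *Pck2*, the intermediate filament gene *Prph*, *Coch*, *Aif1l* and *Tmem54* were also among them. The 5 most abundant transcripts, *Rmrp*, *Npm1*, *Eef1a1*, *Hist2h2bb* and *Hsp90ab1*, were the same in both columns, with ratios from −0.14 to 0.16.

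For the counts in this paragraph, 7.26% of all genes examined were called higher and 5.58% lower. Of 16 adhesion and epithelial genes 4 were called higher, *Krt8*, *Krt18*, *Ocln* and *Cldn7*, and none lower, and the median log2 ratio was 0.33. The simple keratin genes *Krt8* (12.4, 37.6, 233 and 619 FPKM over the 4 stages) and *Krt18* (15.4, 80.7, 312 and 846) had larger values at each later stage, while *Cdh1* (E-cadherin) stood at 139 and 147, *Epcam* at 234 and 250 and *Cldn4* at 46.6 and 27.9. Of 12 targets of Yap and serum response factor, 6 were called higher and none lower, among them *Cnn1* (1.25 and 8.20), *Cyr61* (2.61 and 6.47) and *Tagln* (9.00 and 19.3). Among the 11 above 1 FPKM in both columns, 5 were higher. Of 20 matrix and integrin genes 5 were called lower and 2 higher. The lower ones included the basement membrane genes *Lama1* (7.79 and 0.742), *Lamc1* (33.0 and 12.1) and *Nid1* (9.76 and 1.57) as well as *Fn1* (31.6 and 11.4), whose protein coated the plates. *Lama1* passed the FPKM minimum through ES cells alone, which fixes its direction. Among the 17 matrix and integrin genes above it in both columns, 4 were lower and 1 higher. Of 7 mesenchymal and EMT genes examined, 1 was called higher and 2, *Fn1* and *Zeb1*, lower, with a median log2 ratio of 0.17. *Zeb1* (1.39 and 0.486) passed the FPKM minimum through ES cells alone, which fixes its direction. *Snai1*, *Snai2* and *Zeb2*, which drive EMT, were below 1 in both columns.

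The *Smad4* line was used to ask which of these genes depended on Smad4 on day 1, within a table that shares no column with the F1G4 comparison. *Smad4* itself read 33.8 FPKM in WT and 39.4 in KO cells. As only the first exon was deleted, reads from the rest of the gene enter this value, and it does not check the label. In KO cells 239 of 11215 genes (2.13%) were called lower and 239 (2.13%) higher than in WT cells of the line. Of the genes called higher on day 1 in F1G4 cells, 755 were examined there, and 45 (5.96%) were lower and 39 (5.17%) higher in KO cells. Of those called lower on day 1, 423 were examined, and 45 (10.6%) were lower and 28 (6.62%) higher in KO cells. Among genes not called, the shares were 0.754% and 0.796%. With FPKM above 5 in both comparisons, 8 of 268 genes higher on day 1 were lower in KO (2.99%) and 22 of 191 genes lower on day 1 (11.5%), against 0.355% of genes not called. Levels were not matched between these groups.

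Of the 10 BMP targets examined there, 9 were called lower in the KO, with a median log2 ratio of KO to WT of −2.43. For the counts in this paragraph, 2.13% of all genes were called lower and 2.13% higher in KO cells. *Msx1*, *Msx2* and *Gata2* passed the FPKM minimum through the WT column alone, and of the 7 above it in both columns 6 were lower. *Id1* read 77.1 in WT and 2.14 in KO cells, *Id2* 73.2 and 14.8, *Id3* 109 and 19.1, and *Msx1* 3.88 and 0.282. *Smad7*, not called between ES cells and day 1, read 14.9 and 2.84. In the Nodal list 5 of 14 were lower, including *Tdgf1* (126 and 17.5), *Lefty2* (23.7 and 3.50) and *Nodal* (25.6 and 5.96), as was *Wnt3* in the WNT ligand and mesoderm lists (7.83 and 1.22). *Wnt5b* was called lower too, whereas *Wnt4*, *Wnt8a*, *Eomes*, *T* and *Hand1* passed the minimum through the WT column alone, so that no count is drawn from them. Among naive factors 4 of 13 were lower, *Nanog* (65.2 and 18.1), *Klf2*, *Nr5a2* and *Tbx3*, and none was higher. *Nr5a2* and *Tbx3* passed the minimum through the WT column alone. In the formative list 6 of 22 were higher in KO cells, among them *Fgf5* (3.40 and 17.9) and *Pou3f1* (6.58 and 14.7). None of the 25 cholesterol genes or the 25 Atf4 genes was called in either direction, with median log2 ratios of KO to WT of 0.04 and −0.09. No call among 25 genes is near the share over all genes, so dependence of these lists on Smad4 is not read from it.

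**Figure D5:**
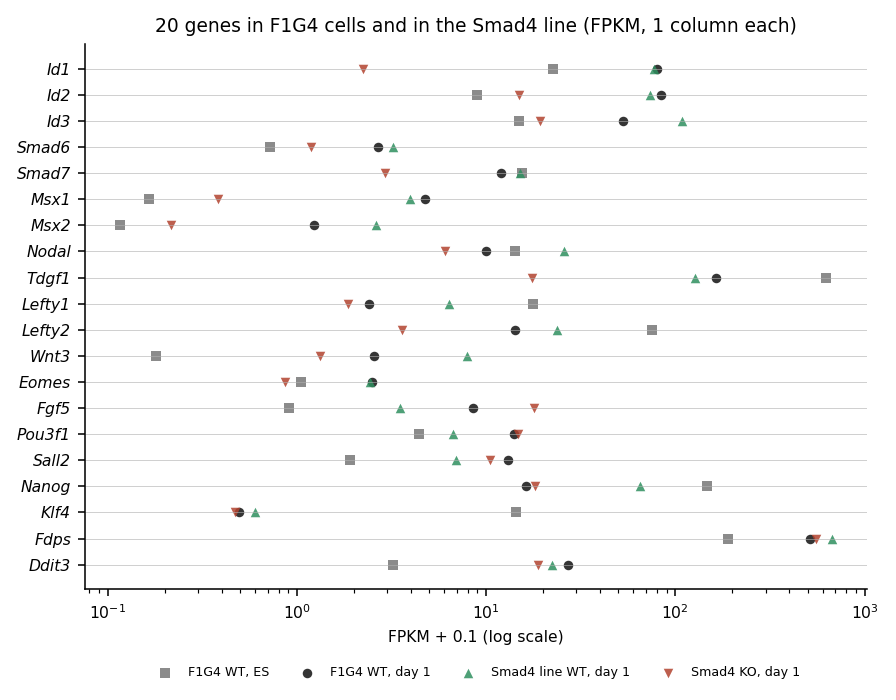
FPKM + 0.1 (log scale) of 20 genes in F1G4 ES cells (squares) and on day 1 (circles), and on day 1 in WT (upward triangles) and KO cells (downward triangles) of the *Smad4* line, whose table was normalised separately. *Id1* in KO cells (2.14) lies below F1G4 ES cells (22.4), while *Fdps* and *Ddit3* in KO cells lie near the day 1 values of WT cells.

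The day 1 values of the WT lines were close for *Id1* (79.7 in F1G4 cells, 77.1 in the *Smad4* line), *Klf4* (0.396 and 0.501) and *Zfp42* (46.0 and 47.6). Others differed: *Nanog* was 16.1 and 65.2, *Dppa3* 80.3 and 194, *Nupr1* 67.5 and 18.9, *Krt8* 37.6 and 99.3, and *Tagln* 19.3 and 170.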

How the data were processed

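FPKM values computed and deposited by the authors were used as they stand. The authors trimmed reads with cutadapt 2.9 after FastQC, aligned them to mm10 (autosomes, X, Y and M) with refSeq annotation by HISAT2 2.1.0, barring mixed and discordant pairs, sorted them with SAMtools 1.9 and ran Cuffdiff 2.2.1 with multi-read and bias correction and no effective length correction. Strand-specific libraries were made from total RNA. Of 9 tables, 2 were used, each with 1 pooled column per condition, so depth and counting precision are unknown and no SD, n or test was computed. Legends call such values averages of 2 replicates.

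Log2 ratios used a pseudocount of 0.1, which understates changes of low genes. From 24538 rows, 4 with duplicated names were left out, and 26 names converted to dates were not used by name. Of 24534 names, 24423 matched RefSeq (GRCm38.p6), which gave positions, class and promoter windows. The members and gene lists were chosen with earlier results of these data known. Named genes were the 15 highest and 15 lowest ratios among called genes that reached FPKM 10 in the higher column, the 5 highest FPKM per column, and any gene of 34 lists and 7 marker lists. A few named genes are not reported here. Short RNAs (gene span up to 300 bases) were counted apart. The calling step, tested on simulated data, recovered 200 of 200 altered genes among 24534. Scripts ran in Python 3.11.15 with pandas 2.3.3, numpy 2.4.6 and matplotlib 3.10.9. Pseudocount, FPKM minimum, scaling, threshold and gene class were varied.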

Additional observations from a re-analysis of the deposited data

How the results depend on the processing

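No paired analysis was possible because each column pools its condition and carries no replicate number, and for the same reason no replicate could be left out. Of the 1416 genes called (801 higher, 615 lower), a pseudocount of 1 left 820 (418 and 402), FPKM above 5 left 639 (286 and 353), and a log2 threshold of 1.5 left 751 (424 and 327). Without an FPKM minimum 2762 were called (1699 and 1063). In TPM, 1368 were higher. The majority was thus of lower genes with FPKM above 5 and of higher genes in the other settings. With the day 1 column of the WT cells of the *Smad4* line in place of that of F1G4 cells, added after seeing the data, 2518 were called (1603 higher). The median of cholesterol genes passed 1 in TPM (1.09), scaled to a median ratio of 1 (1.05) and with the other line (1.19). That of Atf4 genes passed below 1 with FPKM above 5 (0.97) and with the other line (0.84), and that of LIF and Stat3 genes was −0.35 with the other line. The other line also turned the median of formative genes from 0.86 to −0.16 (5 higher, 4 lower) and that of retinoic acid genes from −0.18 to 1.41, and moved those of Yap and serum response targets from 0.85 to 2.46 and of p53 targets from 0.36 to 1.10. It changed the sign of smaller medians too, of immediate early (−0.45 to 0.22), glycolysis (−0.08 to 0.15), cyclin (−0.02 to 0.28) and matrix genes (−0.40 to 0.02). Of genes higher on day 1, those lower and higher in *Smad4* KO numbered 21 and 14 with a pseudocount of 1 and 8 and 10 with FPKM above 5. Of genes lower on day 1, they numbered 23 and 7, and 22 and 4. The cause was not tested, other than that fewer genes pass stricter settings. No list median past a log2 ratio of 1 changed sign in the settings run. Unknown depth limits all values of low genes.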

Other observations

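Of 59 short RNAs examined, 24 (40.7%) were called higher on day 1 and 1 lower, *Scarna17*, with 7.04% of protein-coding genes called higher and 5.47% lower. Of the 24, 14 passed the FPKM minimum through day 1 alone, which fixes their direction. Of the 43 above it in both columns, 10 (23.3%) were called higher and none lower, against 3.92% and 3.74% of all genes above it in both. Levels were not matched between the classes. Of the 43, 34 were small nucleolar RNAs, which guide modification of ribosomal RNA, and 9 of these were called higher. *Snord22* stood at 79.5 FPKM in ES cells and 172 on day 1, *Snora24* at 11.4 and 40.4, and the minor spliceosomal RNA gene *Rnu12* at 2.65 and 12.6. Of the 59, 6 were listed at 0 in ES cells. The miRNA genes of the miR-290 and miR-302 clusters were listed at 0 in all columns, and none of 11 genes of the microRNA machinery was called.

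Counts of germline and imprinted genes stand beside 7.26% of all genes examined called higher and 5.58% lower. Germline genes were split. Of 18 examined, 6 were called lower, among them *Tfap2c* (17.0 and 3.20) and *Prdm1* (3.21 and 1.03), factors of germ cell specification, and 3 higher, *Sycp3* (11.0 and 37.3), *Tdrd1* and *Taf7l*. Among the 15 above 1 FPKM in both columns, 5 were lower and 1 higher. None of the 2-cell-like genes reached FPKM 1. Among 17 imprinted genes examined, *Igf2* (0.151, 2.02, 15.6 and 113 over the 4 stages) and *Grb10* (29.9, 65.8, 86.9 and 90.5) were called higher, none was lower, and the median log2 ratio was 0.81. *Igf2* passed the FPKM minimum through day 1 alone, which fixes its direction. *Grb10* read 36.5 in WT and 7.15 in KO cells of the *Smad4* line.

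The counts of the lists that follow stand beside 7.26% of all genes called higher and 5.58% lower. Of 18 chromatin regulators only *Zfp57*, which protects imprints (131 and 23.0), and the Polycomb gene *Eed* (245 and 94.3) were called, both lower. In glycolysis the transporter gene *Slc2a3* stood at 101, 39.8, 273 and 609 FPKM over the 4 stages and *Pfkp* at 37.2 and 16.5, both called lower on day 1, while the lactate exporter gene *Slc16a3* was called higher (16.9 and 42.9). The remaining 16 of the 19 examined were not called. Of 14 hypoxia genes, *Vegfa* (1.39 and 5.11) and *P4ha2* were called higher and *Kdm3a* (52.4 and 11.5) and *Pdk1* lower. Of 16 p53 targets none was called, but with the day 1 column of WT cells of the *Smad4* line in place of that of F1G4 cells 9 were higher (median log2 1.10, against 0.36). Of 15 cyclin and Cdk inhibitor genes, *Ccnd3* was lower (31.3 and 11.0) and *Ccnd2* (1.28 and 2.98) and *Cdkn2b* higher. Of 16 oxidative stress genes, *Gclm* (24.5 and 52.98) and *Gpx3* were called higher and *Gpx4* (284 and 116) lower. *Cpt1a* (5.67 and 1.55), which admits fatty acids to mitochondria, and *Pdk4* were called lower and *Cpt1b* higher. *Crabp2*, a carrier of retinoic acid, was called higher (15.6 and 55.1), and so was 1 of 5 metallothionein and zinc genes, *Mt3* (1.59 and 6.71).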
